A study of Homo sapiens with 18 samples.

Results

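Collagen chain genes are the genes of the alpha chains that make up the collagens, the main proteins of scar matrix. They were chosen by name, as every symbol of the count table made of COL, a type number, A and a chain number. The rule found 44 genes among 28278 symbols, and 28 of the 44 passed the filter on low counts, which keeps a gene with about 10 counts or more in enough libraries. The table held RNA-seq counts per gene of LX-2 cells, an established human line of hepatic stellate cells. Thrombin, the protease of the clotting cascade that also acts on cells through protease-activated receptors, was given at 1 U/mL for 4, 24 or 48 h, and the control cells stayed in serum-free medium. All cells had spent 1 h in serum-free medium first. The groups were thrombin 4 h, control 4 h, thrombin 24 h, control 24 h, thrombin 48 h and control 48 h, with 3 libraries in each, numbered 12, 13 and 14 in the labels. All libraries came from 1 line cultured on plastic, and the labels do not say whether the numbers mark separate cultures. A p-value here therefore sets a difference between groups against the scatter of these libraries, and that scatter may be technical.

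A collagen molecule is a triple helix of alpha chains, each a long run of triplets with glycine in the first place. Chains are hydroxylated and glycosylated in the endoplasmic reticulum, folded there with the help of chaperones, exported, trimmed at their ends and crosslinked outside the cell. In the healthy liver the stellate cell stores retinoids in the space of Disse; in injury it turns into a myofibroblast, and the fibrillar types I and III it lays down are the bulk of the fibrotic scar. Types IV and XVIII belong to basement membranes, type VI forms beaded microfilaments, type VII anchors epithelia, and type V is built into type I fibrils and limits their width.

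Library totals ranged from 14431044 to 23270601 counts, and no library repeated another. Levels are CPM, counts per library size scaled by TMM, and a gene is said to have risen or fallen where edgeR's quasi-likelihood test gave an adjusted p under 0.05 over the 15353 genes tested. Of 12 stellate cell markers, 8 were above the filter, and VIM was the most abundant at a mean of 3593 CPM, while LRAT, the retinol-esterifying enzyme of the quiescent stellate cell, was at or near 0. Of the markers of other liver cells the most abundant were SERPINA1 among 8 hepatocyte genes (4.96 CPM; ALB 0.0315 CPM), VWF among 8 endothelial genes (14.5 CPM), CD68 among 8 macrophage genes (75.0 CPM; CD163 0.0028 CPM) and SOX9 among 6 cholangiocyte genes (170 CPM; EPCAM 0.0513 CPM). The libraries labelled thrombin 4 h differed from those labelled control 24 h in 11 of 15353 genes (0.0716%; 0.0195% higher and 0.0521% lower), and in 0 of the 28 collagen genes. Directions at 4 and 24 h therefore rest on the labels, and groups are named as labelled.

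COL1A1 stood far above the other chains, and its partner COL1A2 was low. Levels per kilobase of coding length set genes beside each other only roughly, because the counts may include reads outside the coding bases. On this scale COL1A1 had a mean level of 518 CPM per kb over the 18 libraries (397 to 638). COL6A2 followed at 168, COL6A1 at 134 and COL4A2 at 131 CPM per kb. A group of 6 genes lay close together, with overlapping ranges: COL5A2 at 69.3, COL12A1 at 68.5, COL5A1 at 65.2, COL3A1 at 63.1, COL6A3 at 58.6 and COL18A1 at 55.7 CPM per kb. In all, 13 of the 28 genes had a mean above 10 CPM per kb, 10 lay between 1 and 10, and 5 lay under 1. COL1A2, whose chain joins that of COL1A1 in the type I heterotrimer, had 4.40 CPM per kb (3.03 to 6.11), and COL1A1 was between 99.8 and 151 times higher per length in each library. COL1A1 alone took 30.9% to 38.8% of all collagen counts.

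**Figure D1:**
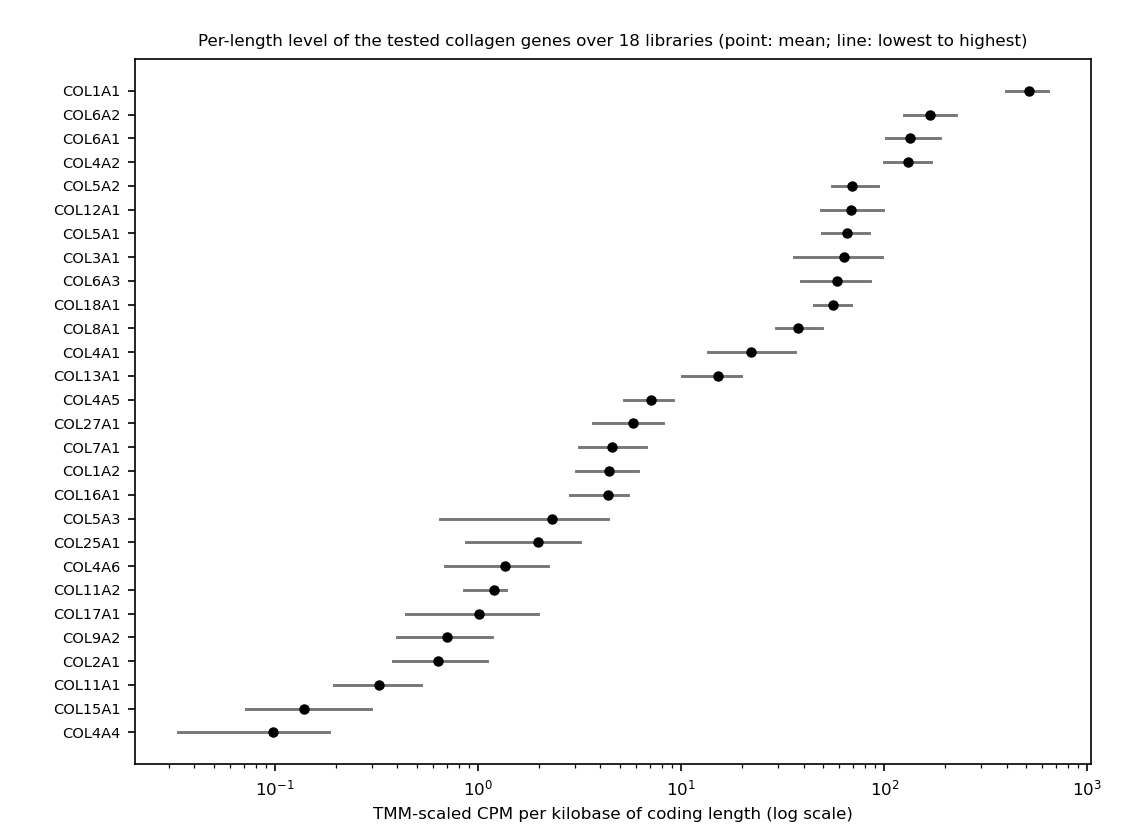
Mean level of each of the 28 tested collagen genes over 18 libraries in TMM-scaled CPM per kilobase of coding length, on a log scale; lines run from the lowest to the highest library. COL1A1 is highest at 518 CPM per kb, and COL1A2 lies at 4.40 CPM per kb.

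The other 16 collagen genes were below the filter, with at most 15 counts in any library. They were COL4A3, COL6A5, COL6A6, COL8A2, COL9A1, COL9A3, COL10A1, COL14A1, COL19A1, COL20A1, COL21A1, COL22A1, COL23A1, COL24A1, COL26A1 and COL28A1, and 13 of them had at least 1 library at 0. Just inside the filter lay COL4A4, with 3 to 14 counts, and COL15A1, with 5 to 20 counts; just outside it lay COL8A2, with 4 to 12 counts, and COL9A3, with 1 to 15 counts. The untested genes included the network collagen of hypertrophic cartilage, COL10A1, and the tenocyte and fibroblast collagen COL14A1.

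Collagen genes share a gene structure that bears on how their reads are counted. The triplet repeat is encoded in many short exons, and in 18 of the 44 genes the median coding exon was 54 bases long. The tested collagen genes had a median of 51.5 coding exons, against 7 over 20356 protein-coding genes, and a median coding exon of 57 bases, against 133. COL7A1 had 118 coding exons and COL8A1 had 2. Bowtie2 is the aligner named in the submitters' processing notes, and it does not split reads across introns. Whether reads over exon junctions were lost from collagen genes was not tested. A loss shared by all libraries would bear on levels set between genes rather than on fold changes within a gene.

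At 4 h 3 of the 28 tested collagen genes were lower with thrombin and 0 were higher, a share close to that of all 15353 genes, of which 11.8% were called in either direction (6.29% higher and 5.52% lower). The count depended on the fit: 8 collagen genes were called with the library number as a replicate block, 9 without a low-count filter and 11 without all libraries numbered 12. With the block, 11.9% of all 15353 genes were called. Shares of all genes in the other fits are not given here. The 3 were COL1A1, the regulatory fibril chain COL5A1 and COL8A1, a short-chain collagen of vessel walls and activated mesenchyme. The median log2 fold change of the 28 was -0.11, and that of all tested genes was -0.00083. In bulk RNA, a lower level in all cells and fewer cells that express a gene cannot be told apart.

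COL5A1 (chromosome 9, 134641803 to 134844843 of GRCh38.p14) had 319, 273 and 278 CPM in the thrombin 4 h libraries numbered 12, 13 and 14, against 408, 422 and 382 CPM in control 4 h. The groups did not overlap. Its log2 fold change was -0.48 ± 0.10 (SE, edgeR adjusted p = 0.00195), and it stayed called without each of the 6 libraries in turn. COL8A1 had 79.2, 65.8 and 80.9 CPM in thrombin 4 h and 84.8, 98.6 and 111 CPM in control 4 h. All thrombin libraries lay under all control libraries. Its log2 fold change was -0.38 ± 0.09 (edgeR adjusted p = 0.00989).

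COL1A1 (chromosome 17, 50184101 to 50201631) had 2229, 2071 and 1860 CPM in thrombin 4 h, against 2773, 2549 and 2412 CPM in control 4 h. These groups did not overlap either, and the log2 fold change was -0.33 ± 0.10 (edgeR adjusted p = 0.0346). The call of COL1A1 was lost without number 12 or 13 of control 4 h or number 13 or 14 of thrombin 4 h, and that of COL8A1 without number 14 of control 4 h or number 13 of thrombin 4 h. The count of 3 became 1 without thrombin 4 h number 13 and 5 without thrombin 4 h number 12; without control 4 h number 12, 1 gene was called higher.

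COL6A3 came close at 4 h, with 525, 394 and 381 CPM in thrombin and 501, 811 and 748 CPM in control. The control library numbered 12 lay within the range of the thrombin libraries. The log2 fold change was -0.66 ± 0.21 (edgeR adjusted p = 0.0519), and it was called in 8 of 13 alternatives. COL5A2, the partner of COL5A1 in type V, had 324, 285 and 291 CPM in thrombin and 296, 305 and 278 CPM in control, which overlapped (log2 fold change 0.04 ± 0.12).

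The other main chains of types I, III, IV and VI were not called at 4 h. COL1A2 had 19.6, 12.8 and 12.8 CPM in thrombin 4 h and 25.1, 16.9 and 17.9 CPM in control 4 h (log2 fold change -0.40 ± 0.19, edgeR adjusted p = 0.176). COL3A1 had 383, 305 and 288 CPM in thrombin and 319, 206 and 181 CPM in control (0.47 ± 0.25, edgeR adjusted p = 0.264). COL4A1 had 96.6, 68.1 and 76.0 CPM in thrombin and 95.6, 106 and 83.7 CPM in control (-0.25 ± 0.18, edgeR adjusted p = 0.406). The groups overlapped in these 3 genes. COL4A2 had 607, 559 and 521 CPM in thrombin, all under the 681, 700 and 620 CPM in control (-0.25 ± 0.12, edgeR adjusted p = 0.195). COL6A1 had 417, 424 and 414 CPM in thrombin, all above the 371, 366 and 315 CPM in control (0.25 ± 0.11, edgeR adjusted p = 0.138). COL6A2 had 501, 544 and 474 CPM in thrombin and 524, 435 and 381 CPM in control, which overlapped (0.18 ± 0.12, edgeR adjusted p = 0.359).

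At 24 h chains of the fibrillar types I and V and the main chains of the basement membrane network were higher with thrombin, while COL2A1, COL4A5, COL6A1, COL6A2 and COL25A1 were lower. Of the 28 genes, 11 rose and 5 fell, against 17.6% of all genes called in either direction (9.05% higher and 8.54% lower). The median log2 fold change of the 28 was 0.15, and that of all tested genes was 0.0017. By family, 4 of 10 fibrillar genes rose (COL1A1, COL1A2, COL5A1 and COL5A2) and 1 fell (COL2A1). Of 5 basement membrane genes 2 rose and 1 fell, and of 3 type VI genes 1 rose and 2 fell. The others that rose were COL7A1, COL8A1, the fibril-associated COL12A1 and the transmembrane hemidesmosome collagen COL17A1; the transmembrane COL25A1 fell.

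**Figure D2:**
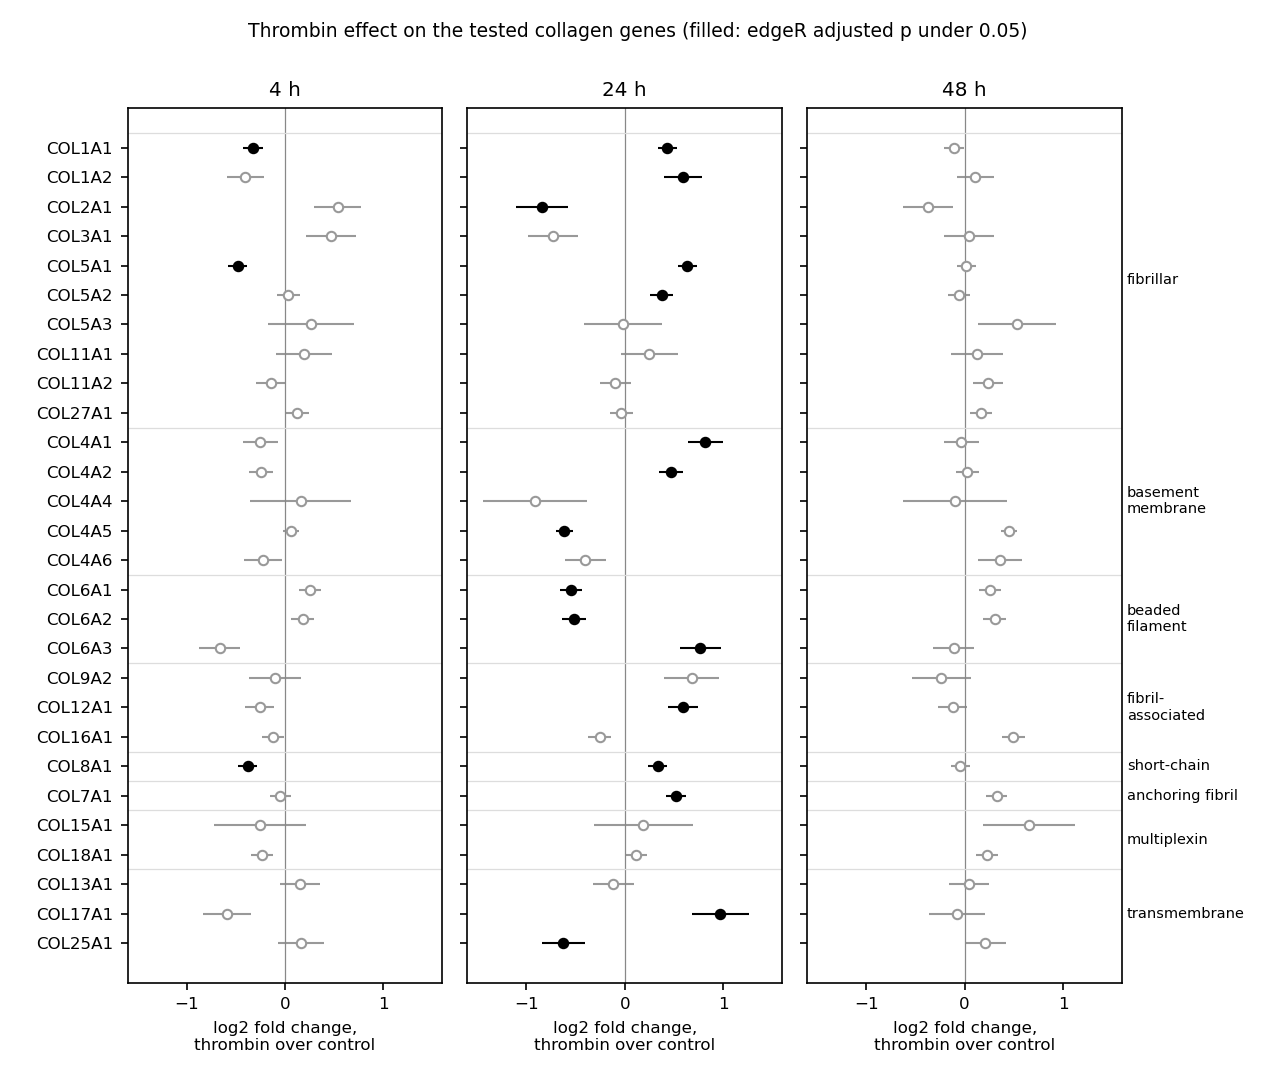
Log2 fold change of thrombin over control at 4, 24 and 48 h for the 28 tested collagen genes, grouped by family; bars are standard errors, and filled points have an edgeR adjusted p under 0.05. There are 3 filled points at 4 h, all left of 0, 16 at 24 h, of which 11 lie right of 0, and 0 at 48 h.

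Among the fibrillar chains at 24 h, COL1A1 had 2620, 2724 and 2804 CPM with thrombin, against 2199, 2088 and 1743 CPM in control. Each thrombin library was above each control library, and the log2 fold change was 0.43 ± 0.10 (edgeR adjusted p = 0.00338). COL5A1 had 452, 465 and 446 CPM with thrombin and 315, 289 and 272 CPM in control. The groups did not overlap, and of the fibrillar chains it had the smallest p at 24 h, and the log2 fold change was 0.64 ± 0.10 (edgeR adjusted p = 3.69e-05).

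COL1A2 (chromosome 7, 94394895 to 94431227) had 24.0, 23.2 and 20.5 CPM with thrombin and 17.8, 14.7 and 12.4 CPM in control at 24 h (log2 fold change 0.59 ± 0.19, edgeR adjusted p = 0.037). COL5A2 had 417, 411 and 330 CPM with thrombin, against 336, 297 and 258 CPM in control. The lowest thrombin library lay under the highest control library; the log2 fold change was 0.38 ± 0.12 (edgeR adjusted p = 0.0251). COL3A1, the chain of type III collagen, ran the other way, with 266, 217 and 158 CPM in thrombin and 428, 360 and 275 CPM in control. Its groups did not overlap, but they spread widely and its log2 fold change, -0.73 ± 0.25, did not pass the test (edgeR adjusted p = 0.0655). That missing call depended on the fit: COL3A1 was called lower in 7 of 13 alternatives, which were DESeq2, no low-count filter, a minimum count of 50, the replicate block, and the fits without all libraries numbered 12, without control 24 h number 14 and without thrombin 24 h number 12. COL2A1, the cartilage fibril chain, was at 1.70 to 2.37 CPM with thrombin and 2.52 to 4.95 CPM in control (log2 fold change -0.84 ± 0.26, edgeR adjusted p = 0.0249). The remaining fibrillar genes COL5A3, COL11A1, COL11A2 and COL27A1 had log2 fold changes between -0.10 and 0.25 and were not called.

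The basement membrane chains split at 24 h. COL4A1 and COL4A2 encode the pair of chains found in nearly all basement membranes, and both rose. COL4A1 (chromosome 13, 110148963 to 110307157) had 182, 150 and 138 CPM with thrombin, against 103, 83.0 and 80.8 CPM in control, and it changed by 0.82 ± 0.18 on the log2 scale (edgeR adjusted p = 0.00351). COL4A2 (chromosome 13, 110307284 to 110513209) had 870, 834 and 773 CPM with thrombin, against 683, 592 and 512 CPM in control, and it changed by 0.47 ± 0.12 (edgeR adjusted p = 0.00777). In both genes the lowest thrombin library was above the highest control library.

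COL4A5, the Alport syndrome gene, was the called collagen gene with the smallest p. Its levels were 27.4, 30.9 and 30.4 CPM in thrombin 24 h, against 46.0, 45.3 and 44.3 CPM in control 24 h. The libraries of each group were within a few CPM of each other and the groups lay far apart, and the log2 fold change was -0.61 ± 0.08 (edgeR adjusted p = 6.3e-06). COL4A6, its neighbour, had 4.30, 8.36 and 7.22 CPM with thrombin and 8.22, 7.66 and 10.4 CPM in control (-0.40 ± 0.21, edgeR adjusted p = 0.194). COL4A4 was too low to place, with 0.169 to 0.807 CPM in thrombin and 0.528 to 0.936 CPM in control. The ratio of COL4A5 to COL4A1 counts was 0.150 to 0.220 in thrombin 24 h and 0.447 to 0.548 in control 24 h.

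These genes lie in pairs that start back to back. The starts of COL4A1 and COL4A2 are 127 bases apart, and those of COL4A5 and COL4A6 on the X chromosome are 380 bases apart. The stretch between the starts of the pair that rose is shown with the window before COL4A5, which fell. Both are from the RefSeq table of GRCh38.p14, on the plus strand, with matches to the TATAAA motif, the CCAAT motif or the GGGCGG motif on either strand in capitals.
COL4A1 and COL4A2, between the starts (chr13:110307158-110307283): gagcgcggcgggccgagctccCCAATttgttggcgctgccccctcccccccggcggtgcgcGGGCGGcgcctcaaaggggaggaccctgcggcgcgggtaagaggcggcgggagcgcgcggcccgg
COL4A5, 250 bases before the start (chrX:108439588-108439837): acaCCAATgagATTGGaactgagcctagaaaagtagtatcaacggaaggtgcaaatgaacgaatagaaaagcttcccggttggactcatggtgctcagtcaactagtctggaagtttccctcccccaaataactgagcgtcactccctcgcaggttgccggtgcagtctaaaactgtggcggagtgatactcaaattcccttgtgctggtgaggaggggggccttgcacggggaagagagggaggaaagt
The stretch shared by COL4A1 and COL4A2 is 126 bases long and holds 1 CCAAT and 1 GGGCGG and no TATAAA. The COL4A5 window, of 250 bases, holds 2 CCAAT, 1 on each strand, and neither of the other motifs. The lengths differ, so the counts of matches are not directly comparable.

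Type VI collagen is assembled from the chains of COL6A1, COL6A2 and COL6A3, and at 24 h these moved in opposite directions. COL6A1 (chromosome 21, 45981770 to 46005048) had 332, 379 and 328 CPM with thrombin, against 580, 517 and 423 CPM in control. The log2 fold change was -0.55 ± 0.11 (edgeR adjusted p = 0.000922), with no overlap. COL6A2 (chromosome 21, 46098112 to 46132848) had 434, 482 and 394 CPM with thrombin, against 688, 653 and 528 CPM in control, and its log2 fold change was -0.51 ± 0.12 (edgeR adjusted p = 0.00393).

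COL6A3 (chromosome 2, 237324018 to 237414164) had 682, 748 and 796 CPM with thrombin, against 496, 438 and 371 CPM in control. All thrombin libraries were above all control libraries, and the log2 fold change was 0.77 ± 0.21 (edgeR adjusted p = 0.019). The ratio of COL6A3 to COL6A1 counts was 1.97 to 2.42 in thrombin 24 h and 0.848 to 0.878 in control 24 h. At 4 h it was 0.921 to 1.26 in thrombin and 1.35 to 2.37 in control, and at 48 h 1.07 to 1.13 in thrombin and 1.11 to 1.58 in control. COL6A2 over COL6A1 stayed between 1.14 and 1.41 in all 18 libraries.

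COL6A1 and COL6A2 are neighbours on chromosome 21, and COL6A3 lies on another chromosome. The windows of the pair that could be set side by side are those of COL6A2, which fell, and COL6A3, which rose, each the 250 bases before the start on the gene's own strand, with the same motifs in capitals.
COL6A2 (chr21:46097862-46098111, plus strand): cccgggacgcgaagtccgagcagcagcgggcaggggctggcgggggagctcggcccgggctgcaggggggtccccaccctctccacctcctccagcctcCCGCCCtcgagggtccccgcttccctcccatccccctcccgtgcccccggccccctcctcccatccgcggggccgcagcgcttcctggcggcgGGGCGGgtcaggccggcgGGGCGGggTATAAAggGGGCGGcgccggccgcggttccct
COL6A3 (chr2:237414165-237414414, minus strand): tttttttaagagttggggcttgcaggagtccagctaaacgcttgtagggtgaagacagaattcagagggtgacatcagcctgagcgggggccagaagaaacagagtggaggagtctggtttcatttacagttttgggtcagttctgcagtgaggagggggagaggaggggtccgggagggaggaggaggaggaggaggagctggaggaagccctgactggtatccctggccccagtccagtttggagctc
COL6A2 has 4 GGGCGG and 1 TATAAA, and COL6A3 has neither. Of the 21 tested collagen genes with a window in the table, 15 held GGGCGG in at least 1 of their windows, against 46.24% of the 27305 genes in the table counted the same way. CCAAT was found in 8 of the 21, against 37.0% of all genes, and TATAAA in 5, against 13.05%. TGANTCA was in 0 of the 21 (8.057% of all), GGAATG in 2 (14.29%) and the CArG box in 0 (1.443%). Genes with several starts have several windows. No motif's letters contain another's, and a match is a run of letters, not a binding site.

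**Figure D3:**
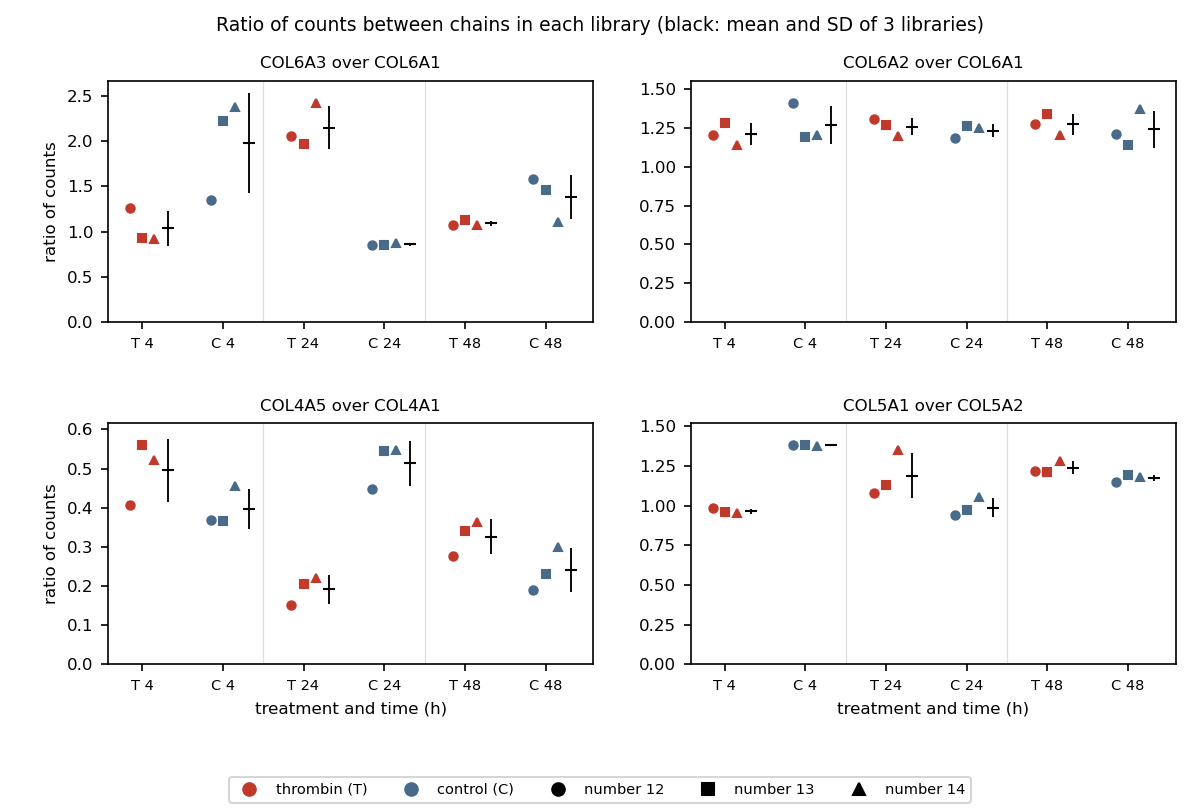
Ratio of raw counts between collagen chains in each library, by treatment and time (T thrombin, C control, in h); black marks give the mean and SD of 3 libraries. COL6A3 over COL6A1 is 1.97 to 2.42 in thrombin 24 h and 0.848 to 0.878 in control 24 h, while COL6A2 over COL6A1 stays between 1.14 and 1.41.

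COL7A1, the anchoring fibril chain (chromosome 3, 48564073 to 48595329), had 59.5, 58.0 and 55.7 CPM in thrombin 24 h, against 41.9, 39.5 and 39.2 CPM in control 24 h. The libraries of each group agreed closely, and the log2 fold change was 0.52 ± 0.10 (edgeR adjusted p = 0.000812). COL8A1 had 90.3, 80.0 and 87.5 CPM with thrombin, against 67.0, 65.6 and 72.0 CPM in control (0.33 ± 0.10, edgeR adjusted p = 0.0159). COL12A1, which lies on the surface of type I fibrils, had 901, 740 and 717 CPM with thrombin, against 544, 512 and 506 CPM in control (0.59 ± 0.15, edgeR adjusted p = 0.0083). COL17A1 had 3.70, 4.21 and 7.45 CPM with thrombin, against 2.14, 2.44 and 3.30 CPM in control, and COL25A1 had 4.71, 3.19 and 2.93 CPM with thrombin, against 5.81, 5.81 and 5.05 CPM in control. Their log2 fold changes were 0.97 ± 0.29 (edgeR adjusted p = 0.0214) and -0.63 ± 0.22 (edgeR adjusted p = 0.0487).

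Of the 16 calls at 24 h, 8 held without each of the 6 libraries in turn and under all other settings tried: COL1A1, COL4A1, COL4A2, COL4A5, COL5A1, COL6A1, COL6A2 and COL7A1. COL12A1 was not called without thrombin 24 h number 12, COL17A1 without control 24 h number 12 or 13 or thrombin 24 h number 14, and COL2A1 without control 24 h number 12 or thrombin 24 h number 12 or 13. COL6A3 was called only without control 24 h number 12 or thrombin 24 h number 12, COL5A2 only without control 24 h number 12 or thrombin 24 h number 14, and COL8A1 only without control 24 h number 14 or thrombin 24 h number 13. Of these 6 fits, COL1A2 was called only in that without control 24 h number 12, and COL25A1 only in that without thrombin 24 h number 12. Both were called in 8 of all 13 alternatives. The count of genes that rose, 11, became 6 without control 24 h number 13 and 7 without thrombin 24 h number 12 or 14. The count that fell, 5, became 3 without control 24 h number 12 or thrombin 24 h number 13.

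**Figure D4:**
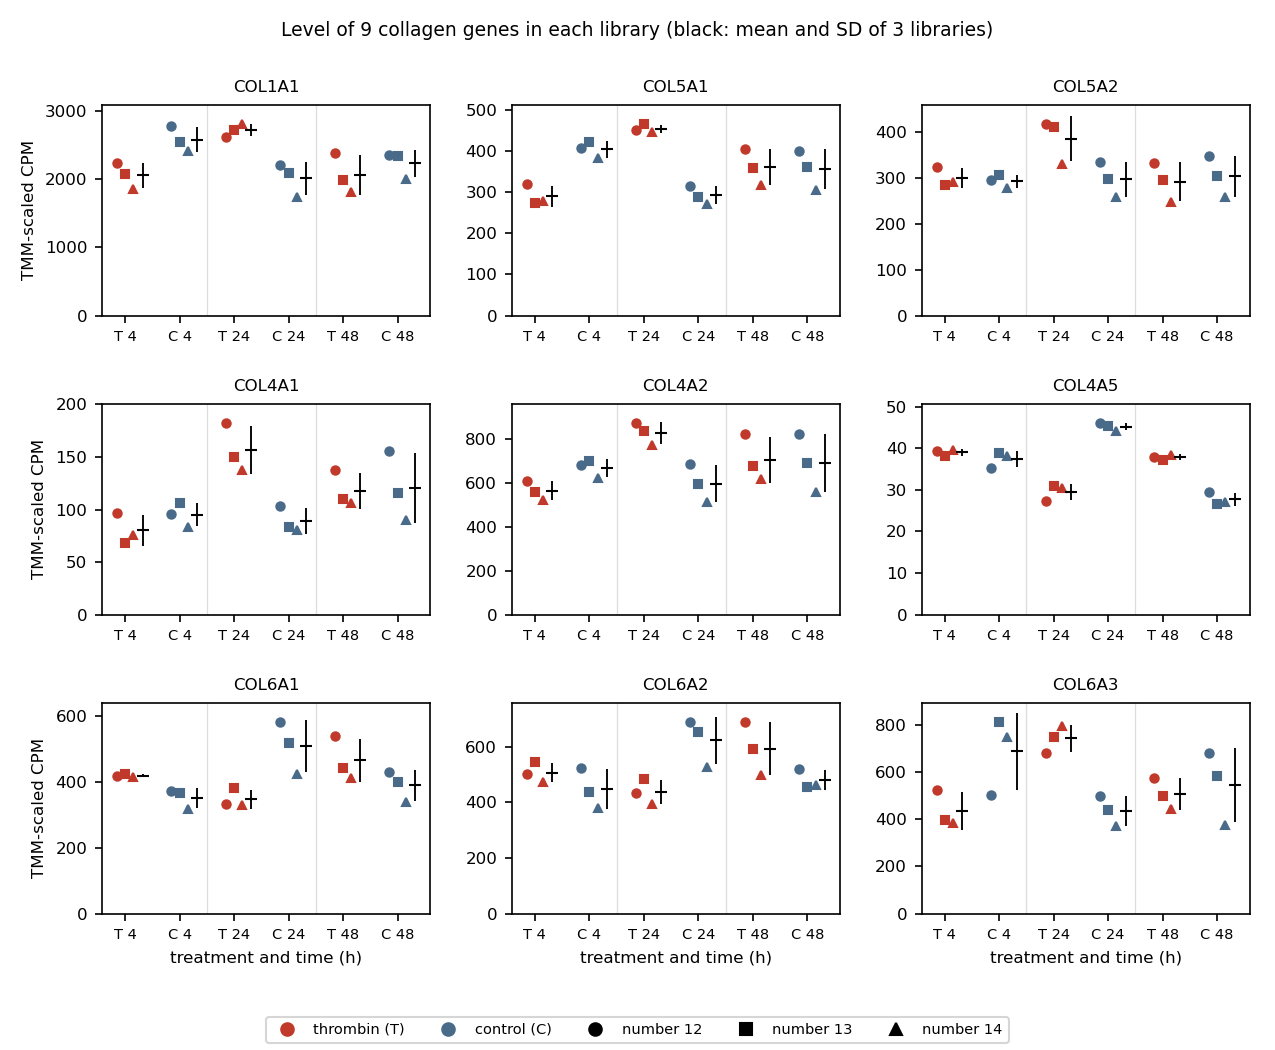
TMM-scaled CPM of 9 collagen genes in each library, by treatment and time (T thrombin, C control, in h); shapes give the library number, and black marks the mean and SD of 3 libraries. COL6A1 and COL6A2 are lower in thrombin 24 h than in control 24 h, while COL6A3, COL1A1, COL5A1, COL4A1 and COL4A2 are higher.

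At 48 h no collagen gene was called in either direction by edgeR, and neither was any of the 15353 genes (0% of all). At an unadjusted p under 0.05 there were 6 of the 28 collagen genes and 1110 of all genes, and DESeq2 called 14 genes, of which 1 was a collagen gene, COL4A5. The median log2 fold change of the 28 was 0.08, and that of all tested genes was 0.0089. COL4A5 had 38.0, 37.2 and 38.5 CPM in thrombin 48 h, against 29.5, 26.5 and 27.1 CPM in control 48 h. The groups lay apart in the direction opposite to 24 h, and the log2 fold change was 0.45 ± 0.08 (edgeR adjusted p = 0.0768). Thrombin libraries also lay above all control libraries for COL7A1 (36.6 to 47.6 CPM in thrombin, 33.2 to 35.4 CPM in control), COL16A1 (20.6 to 23.0 CPM in thrombin, 13.7 to 16.5 CPM in control) and COL4A6 (4.30 to 5.61 CPM in thrombin, 3.52 to 4.22 CPM in control), and no collagen gene had all thrombin libraries below. Of all 15353 genes, 7.28% had all thrombin libraries above and 6.96% all below.

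COL1A1 had 2382, 1989 and 1813 CPM in thrombin 48 h and 2356, 2335 and 1993 CPM in control 48 h, which overlapped (log2 fold change -0.11 ± 0.10). COL5A1 had 405, 358 and 318 CPM in thrombin and 401, 361 and 305 CPM in control (0.02 ± 0.10). COL1A2 had 22.3, 18.4 and 14.7 CPM in thrombin and 21.1, 15.4 and 15.0 CPM in control (0.11 ± 0.19). The groups overlapped in each of these fibrillar genes, and likewise in COL3A1 and COL5A2. COL3A1 had 330, 274 and 214 CPM in thrombin and 314, 258 and 220 CPM in control (0.05 ± 0.25). COL5A2 had 332, 295 and 247 CPM in thrombin and 348, 303 and 259 CPM in control (-0.06 ± 0.12).

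The groups of the basement membrane pair overlapped at 48 h too. COL4A1 had 138, 110 and 106 CPM in thrombin 48 h and 156, 115 and 90.1 CPM in control 48 h (log2 fold change -0.03 ± 0.18), and COL4A2 had 820, 673 and 615 CPM in thrombin and 820, 690 and 558 CPM in control (0.03 ± 0.12). Of the type VI chains, COL6A1 had 538, 442 and 411 CPM in thrombin and 430, 398 and 337 CPM in control (0.26 ± 0.11, edgeR adjusted p = 0.64). COL6A2 had 688, 592 and 497 CPM in thrombin and 521, 455 and 462 CPM in control (0.30 ± 0.12, edgeR adjusted p = 0.612). COL6A3 had 576, 497 and 442 CPM in thrombin and 680, 583 and 374 CPM in control (-0.11 ± 0.21). In each type VI gene at least 1 thrombin library lay within the range of the control libraries. A p above the threshold does not show that the levels were equal.

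On the labels as given, the thrombin effect itself differed between the times. Between 24 h and 4 h it was higher for 10 collagen genes and lower for 5, tested as the difference of the fold changes, against 28.0% of all genes in either direction (13.6% higher and 14.3% lower). Between 48 h and 24 h it was higher for 4 and lower for 4, against 13.8% of all genes (7.16% higher and 6.68% lower). COL5A1 had the smallest p in the first of these, with a difference of 1.12 ± 0.14 on the log2 scale (edgeR adjusted p = 1.11e-06), and COL4A5 in the second, with 1.06 ± 0.12 (edgeR adjusted p = 5.67e-07). Without control 48 h number 14 the count of 4 lower became 7, and it became 2 without control 24 h number 13 or 14, control 48 h number 12 or thrombin 48 h number 13.

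The libraries labelled control differed between the times as well, and whether time itself was the cause was not tested. In control 24 h relative to control 4 h, 4 collagen genes rose and 5 fell, against 15.2% of all genes in either direction (8.10% higher and 7.15% lower). Those that rose were COL25A1 (log2 fold change 1.00), COL6A1 (0.53), COL6A2 (0.48) and COL4A5 (0.27). Those that fell were COL17A1 (-1.53), COL6A3 (-0.66), COL8A1 (-0.52), COL5A1 (-0.47) and COL1A1 (-0.36). COL6A1 averaged 507 ± 79.1 CPM (SD, n = 3) in control 24 h and 351 ± 30.7 CPM (SD, n = 3) in control 4 h, and COL5A1 averaged 292 ± 21.9 CPM in control 24 h and 404 ± 20.2 CPM in control 4 h. The 4 that rose became 2 without control 24 h number 12 or control 4 h number 14, and the 5 that fell became 3 without control 24 h number 14. The control 24 h libraries also enter the comparison of thrombin with control at 24 h, so the values of the 2 comparisons are not independent.

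In control 48 h relative to control 24 h, COL8A1 rose (0.37) and COL16A1 (-0.72), COL4A5 (-0.71), COL4A6 (-1.15) and COL6A1 (-0.38) fell, against 6.12% of all genes (2.69% higher and 3.43% lower). COL4A5 averaged 27.7 ± 1.58 CPM (SD, n = 3) in control 48 h and 45.2 ± 0.892 CPM (SD, n = 3) in control 24 h. The call of COL8A1 was lost without control 48 h number 12 or 13 or control 24 h number 12 or 13, and 4 genes were called higher without control 48 h number 14. That of COL6A1 was lost without control 48 h number 13 or 14 or control 24 h number 12 or 13. Neither COL8A1 nor COL6A1 was called without all libraries numbered 12. Tested over all 6 groups at once, 18 of the 28 collagen genes differed, against 24.5% of all genes.

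The groups were also compared across the labels. The libraries labelled thrombin 24 h differed from those labelled control 4 h in 513 genes (3.34% of all; 2.37% higher and 0.970% lower), among them COL7A1 (0.75 ± 0.10) and COL4A1 (0.72 ± 0.18), which were higher in thrombin 24 h, and COL4A5 (-0.34 ± 0.08), which was lower. COL1A1, for example, had 1860 to 2229 CPM in thrombin 4 h and 1743 to 2199 CPM in control 24 h, and 2620 to 2804 CPM in thrombin 24 h and 2412 to 2773 CPM in control 4 h. Of these 3 calls, that of COL7A1 held without each of the 6 libraries. COL4A1 was not called without control 4 h number 12 or 14 or thrombin 24 h number 12 or 13, and COL4A5 not without control 4 h number 13 or 14 or thrombin 24 h number 12; without thrombin 24 h number 14, 2 genes were called lower.

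Collagen transcripts as a whole took 0.616% ± 0.0557 of the counts in thrombin 4 h and 0.698% ± 0.0400 in control 4 h (SD, n = 3 each). At 24 h the shares were 0.732% ± 0.0194 with thrombin and 0.648% ± 0.0753 in control, and at 48 h 0.666% ± 0.0866 with thrombin and 0.663% ± 0.0815 in control. The lowest thrombin 24 h library, number 14 at 0.711%, lay under the highest control 24 h library, number 12 at 0.718%. In every group number 12 had the highest share and number 14 the lowest. The libraries were not treated as pairs, but within each number the share at 24 h was higher with thrombin. For numbers 12, 13 and 14 it was 0.749%, 0.738% and 0.711% with thrombin and 0.718%, 0.659% and 0.569% in control. At 4 h the share was lower with thrombin in each number, and at 48 h it was lower in number 13 alone. The differences at 4 h and 24 h were in the direction of COL1A1, which takes the largest part of these counts.

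Some chains kept the same order of library numbers in all groups. COL5A3 was highest in the library numbered 12 and lowest in the library numbered 14 in 6 of 6 groups, for example with 22.9, 16.1 and 9.45 CPM in thrombin 48 h and 15.0, 10.7 and 7.85 CPM in control 48 h (numbers 12, 13 and 14). COL3A1 kept the same order in 6 of 6 groups, and COL1A2 was highest in number 12 in 6 of 6. COL17A1 was highest in number 14 in 6 of 6 groups. COL4A5 showed no such order, being highest in each number in 2 of the groups. COL4A2 and COL6A1 were lowest in number 14 in 6 of 6 groups. Over all genes, libraries with the same number did not deviate together, so the numbers were not used to pair libraries. That check covers all genes and does not speak for the collagen genes alone. With the number as a block, the log2 fold change of COL3A1 at 24 h was -0.74 ± 0.09. Its edgeR adjusted p was 1.24e-06 with the block and 0.0655 without it.

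**Figure D5:**
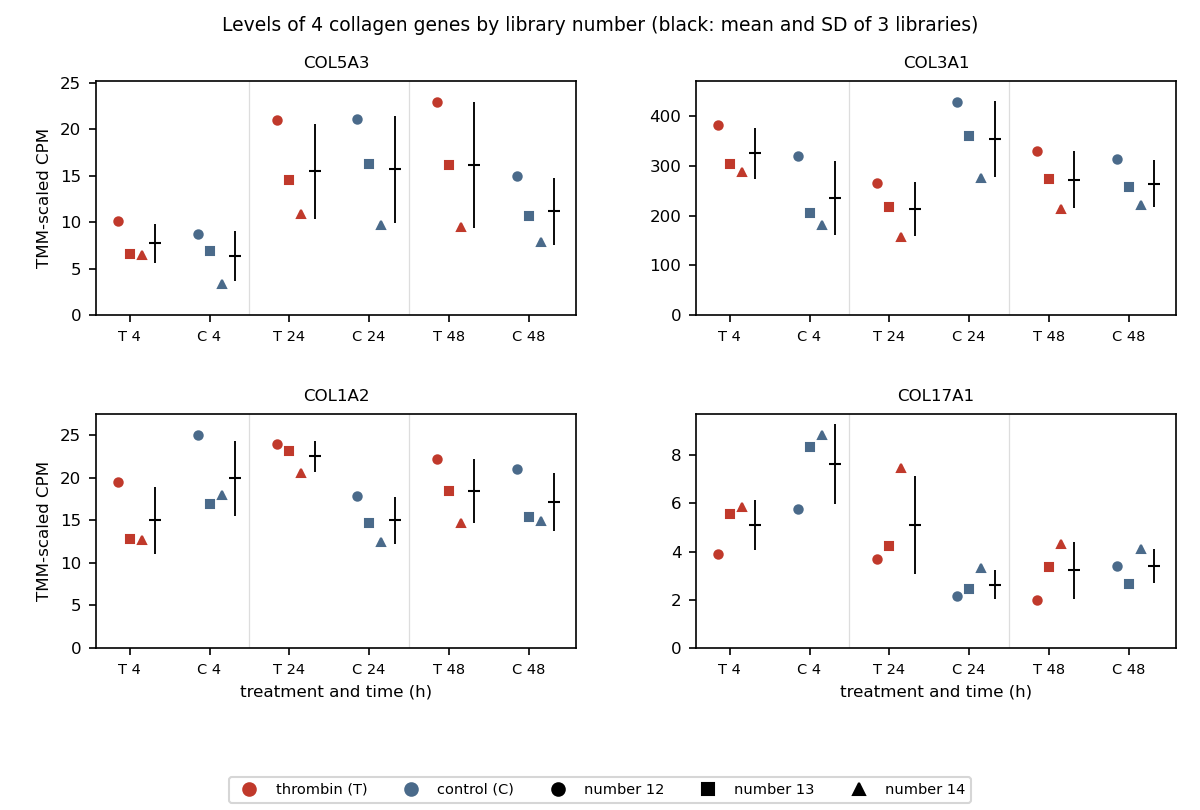
TMM-scaled CPM of COL5A3, COL3A1, COL1A2 and COL17A1 in each library, by treatment and time (T thrombin, C control, in h); shapes give the library number, and black marks the mean and SD of 3 libraries. Number 12 is the highest library for COL5A3, COL3A1 and COL1A2 in 6 of 6 groups, and number 14 for COL17A1.

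Genes of collagen processing were also called at 4 and 24 h. Among 17 tested genes of chain modification and folding, 2 rose and 1 fell at 4 h and 4 rose and 1 fell at 24 h, against 11.8% of all 15353 genes called at 4 h and 17.6% at 24 h. PLOD2, the lysyl hydroxylase of the telopeptides, averaged 118 ± 11.9 CPM in thrombin 24 h and 78.3 ± 2.11 CPM in control 24 h (SD, n = 3 each; log2 fold change 0.59 ± 0.11, edgeR adjusted p = 0.000317), and 75.4 ± 12.8 CPM in thrombin 4 h and 99.1 ± 9.72 CPM in control 4 h (-0.39 ± 0.11, edgeR adjusted p = 0.0165). COLGALT1, the collagen galactosyltransferase, changed by 0.36 ± 0.08 at 24 h, and P3H3, of the prolyl 3-hydroxylase family, by 0.34 ± 0.09 at 4 h. The median log2 fold change of the 17 was 0.09 at 4 h and -0.01 at 24 h.

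Among 12 genes of export and propeptide removal, 0 rose and 1 fell at 4 h and 3 rose and 0 fell at 24 h, with median log2 fold changes of -0.06 and -0.07, against the same 11.8% and 17.6% of all genes. BMP1, the C-proteinase, changed by 0.44 ± 0.10 at 24 h, and ADAMTS2, an N-proteinase, by 0.61 ± 0.15 at 24 h and -0.45 ± 0.15 at 4 h. Among 5 crosslinking genes, 0 rose and 1 fell at 4 h and 1 rose and 2 fell at 24 h. The medians were -0.05 at 4 h and 0.28 at 24 h, and LOXL2, a lysyl oxidase of the collagen network, fell at 4 h and rose at 24 h. It averaged 341 ± 25.2 CPM in thrombin 4 h and 649 ± 70.4 CPM in control 4 h, and 778 ± 24.0 CPM in thrombin 24 h and 313 ± 14.1 CPM in control 24 h (SD, n = 3 each), with log2 fold changes of -0.93 ± 0.09 at 4 h and 1.31 ± 0.10 at 24 h (edgeR adjusted p = 8.82e-07 and 5.1e-10). LOXL3 changed by -1.05 ± 0.18 at 24 h.

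Among 8 collagen receptor genes, 1 rose and 1 fell at 4 h and 1 rose and 2 fell at 24 h, with medians of 0.07 and -0.04; of all genes 11.8% were called at 4 h and 17.6% at 24 h. ITGB1, the common beta chain of the collagen-binding integrins, changed by -0.52 ± 0.11 at 4 h and 0.63 ± 0.11 at 24 h; the receptor tyrosine kinase DDR1 changed by 0.55 ± 0.09 at 4 h and -0.40 ± 0.09 at 24 h. Among 6 fibril-binding genes, 0 rose and 1 fell at 4 h and 4 rose and 0 fell at 24 h, with medians of -0.31 and 0.59, beside the same shares of all genes. FN1, the fibronectin gene, averaged 3635 CPM in thrombin 24 h and 1732 CPM in control 24 h (log2 fold change 1.07 ± 0.17), and THBS2, the thrombospondin that binds collagenases and fibrils, changed by 0.92 ± 0.13 at 24 h and -0.84 ± 0.13 at 4 h. Of the 4 tested collagenolysis genes MMP1, MMP2, MMP14 and CTSK, edgeR called 0 at 4, 24 and 48 h, with 0 at an unadjusted p under 0.05, and the median was -0.04 at 4 h and at 24 h. At 48 h edgeR called 0 genes of each of these 6 lists, with 2 crosslinking and 2 receptor genes at an unadjusted p under 0.05, and the list medians lay between -0.08 and 0.17.

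Of the 16 tested markers of other cells, edgeR called 4, all at 24 h, when 17.6% of all genes were called. The summed endothelial list was 22.8 to 25.2 CPM in thrombin 4 h and 25.5 to 30.9 CPM in control 4 h, groups that did not overlap. It was 16.3 to 21.2 CPM in thrombin 24 h and 16.6 to 24.8 CPM in control 24 h, and of its 6 tested genes CDH5 and KDR rose and PECAM1 fell. The summed cholangiocyte list was 144 to 234 CPM in thrombin 24 h and 166 to 189 CPM in control 24 h, with KRT7 called higher. No hepatocyte or macrophage marker was called at any time, and the hepatocyte list summed to 5.30 to 7.07 CPM in thrombin 24 h and 4.95 to 6.25 CPM in control 24 h. The macrophage list summed to 82.9 to 99.6 CPM in thrombin 24 h and 79.3 to 88.8 CPM in control 24 h. Of the 8 tested stellate cell markers, RELN fell at 4 h and rose at 24 h, ACTA2, the smooth muscle actin of myofibroblasts, rose at 24 h (0.71 ± 0.14) and HAND2 fell at 24 h (-0.74 ± 0.17). The part of these markers in the collagen results was not tested.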

How the data were processed

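Poly(A)-enriched RNA of LX-2 cells was measured in 18 libraries. The authors deposited raw counts per gene symbol. The submitters' processing notes list GRCh38 (hg38) with Bowtie2 2.5.4, DESeq2, cutadapt 4.9 and SAMtools 1.21; the counter, annotation and strand setting are not given in the sources used here. The 7 antisense or divergent rows next to collagen genes had at most 23 counts, and without the strand setting their reads cannot be told from those of the collagen gene.

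All 18 columns were matched to libraries by name. The filterByExpr function of edgeR 4.0.16 (R 4.3.3; a minimum count of 10 and total of 15) kept 15353 genes, with 99.9% or more of the counts of any library. Scaling was by TMM (factors 0.945 to 1.03), and 1 quasi-likelihood model of 6 group means was fitted to all 18 libraries (12 residual degrees of freedom; the biological coefficient of variation was 9.07%). Tests were two-sided, with Benjamini-Hochberg adjustment over all 15353 genes, and a standard error is the fold change over the root of F. The members and lists were chosen with earlier results of these data known, and no list was tested. Per-library values at 4, 24 and 48 h were given for the 10 main chains of types I and III to VI, and at 4 h and 24 h for the called genes with the smallest p, up to 5, and further called genes were named with their fold change; up to 2 called genes were named per pathway list and time. Values at 24 h of COL2A1, COL4A4, COL4A6, COL8A1, COL12A1, COL17A1 and COL25A1 went beyond that rule. They and the genes given for 48 h, the crossed comparisons and the library numbers were chosen after their values were seen.

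Coding lengths and exons were taken from GENCODE v29 (longest coding transcript), in place of the RefSeq protein lengths first planned; coordinates and promoter windows were from RefSeq of GRCh38.p14, which held 44 of the 44 genes and windows for 32. COL1A1, COL1A2, COL3A1, COL5A2, COL6A1, COL8A1 and COL2A1 had no window. Library numbers were checked as pairs: over all genes, 9 correlations of same-numbered libraries' deviations from their group means lay between -0.093 and 0.057. DESeq2 1.42.0, RLE scaling, other count filters, a replicate block, single times and leaving out libraries were the alternatives. The procedure was tested on simulated data drawn with the spread of the fit and without an effect of library number. No call rests on that test.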

Additional observations from a re-analysis of the deposited data

Results flagged for a closer look

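The following collagen genes had a thrombin effect that differed between times by a test of the difference itself (edgeR, adjusted over 15353 genes). Values are differences of log2 fold changes with their standard errors, on the labels as given.

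At 24 h relative to 4 h the effect was higher by 1.12 ± 0.14 for COL5A1, 0.76 ± 0.14 for COL1A1, 0.71 ± 0.13 for COL8A1, 1.43 ± 0.30 for COL6A3, 0.72 ± 0.17 for COL4A2, 1.56 ± 0.38 for COL17A1, 1.07 ± 0.25 for COL4A1, 0.85 ± 0.21 for COL12A1, 0.57 ± 0.15 for COL7A1 and 0.99 ± 0.27 for COL1A2. It differed by -0.67 ± 0.12 for COL4A5, -0.80 ± 0.16 for COL6A1, -0.69 ± 0.17 for COL6A2, -1.38 ± 0.35 for COL2A1 and -1.19 ± 0.36 for COL3A1. Of these 15, 14 held without each of the 12 libraries in turn. COL3A1 did not hold without number 13 or 14 of control 4 h, number 12 of thrombin 4 h, number 12 of control 24 h or number 14 of thrombin 24 h.

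At 48 h relative to 24 h the effect was higher by 1.06 ± 0.12 for COL4A5, 0.80 ± 0.16 for COL6A1, 0.82 ± 0.17 for COL6A2 and 0.75 ± 0.17 for COL16A1. It differed by -0.62 ± 0.14 for COL5A1, -0.55 ± 0.14 for COL1A1, -0.72 ± 0.21 for COL12A1 and -0.85 ± 0.25 for COL4A1. COL12A1 held in 5 and COL4A1 in 6 of the 12 fits that left out 1 library, and the other 6 genes held in all 12. The libraries of 24 h enter both of these comparisons.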

How the results depend on the processing

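Over the 28 tested collagen genes and all comparisons of 2 groups or of 2 effects, 157 of 3397 fold changes under other settings had the opposite sign, and 0 of those 157 were called in either fit. Of 1112 values for the called genes and the main chains, 978 kept their direction and side of the threshold, 88 fell short of it, 27 newly passed it and 19 changed sign. Those 19 were log2 fold changes near 0. At 48 h without a low-count filter COL4A2 was at -0.00409 and COL5A1 at -0.0138, and without all libraries numbered 12 COL4A1 was at 0.0695; COL5A2 at 4 h was at -0.0179 there. Leaving out 1 library gave -0.0230 to 0.0764 for COL5A2 at 4 h and, at 48 h, -0.0452 to 0.278 for COL1A2, -0.115 to 0.187 for COL3A1, -0.210 to 0.189 for COL4A1, -0.109 to 0.164 for COL4A2, -0.0853 to 0.105 for COL5A1, -0.165 to 0.0465 for COL5A2 and -0.326 to 0.0727 for COL6A3. RLE scaling changed no count of collagen genes by over 1.5 times. With DESeq2, and with a minimum count of 50, 1 gene was higher at 48 h (COL4A5). Without a low-count filter, 4 h gave 1 higher and 8 lower, control 48 h against 24 h gave 5 higher and 7 lower, the effect difference between 48 h and 24 h gave 7 higher and 10 lower, thrombin 24 h against control 4 h gave 5 higher, and thrombin 4 h against control 24 h gave 1 higher and 2 lower. With the replicate block (library numbers, which did not pair by the check; 3 of 18 libraries correlated best with their own number), these were 1 higher and 7 lower at 4 h, 3 higher and 7 lower for the controls, 9 lower for the effect difference between 48 h and 24 h, 5 higher for thrombin 24 h against control 4 h, and 1 lower for thrombin 4 h against control 24 h. At 24 h the block gave 11 higher and 6 lower. Of all 15353 genes the block called 11.9% at 4 h, 17.4% at 24 h and 6.25% for control 48 h against 24 h. It called 14.1% for the effect difference between 48 h and 24 h. For thrombin 24 h against control 4 h it called 3.71%, and for thrombin 4 h against control 24 h 0.137%. Shares of all genes under the other settings of this paragraph are not given here. Without all libraries numbered 12, 4 h gave 3 higher and 8 lower, control 48 h against 24 h gave 0 higher, and thrombin 24 h against control 4 h gave 0 lower. With only the 6 libraries of 4 h, 5 genes were lower.

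Leaving out 1 library at a time gave 0 to 1 higher and 1 to 5 lower at 4 h, 6 to 9 higher and 3 to 6 lower at 24 h, and 0 of either at 48 h. The effect difference between 24 h and 4 h gave 10 to 11 higher and 4 to 6 lower, and that between 48 h and 24 h 4 to 5 higher and 2 to 7 lower. Control 24 h against 4 h gave 2 to 5 higher and 3 to 4 lower, control 48 h against 24 h 0 to 4 higher and 3 to 5 lower, thrombin 24 h against control 4 h 1 to 3 higher and 0 to 2 lower, and all 6 groups 13 to 19 called. Fewer libraries enter these fits. The cause of the other changes was not tested. Depth limits the 16 untested genes, with at most 15 counts in any library, and, among those tested, COL4A4 and COL15A1.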
